A study of Mus musculus with 10 samples.

Results

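Retinal ganglion cells (RGCs) that hold melanopsin (Opn4) transcripts were examined in scRNA-seq of adult mouse RGCs before and after optic nerve crush (ONC). A cell was kept when it held at least 2 Opn4 UMIs (unique molecular identifiers, each 1 counted transcript) and at least 1 Opn4 UMI per 10000 UMIs of the cell. This gave 99 Opn4 cells of 2871 distinct cells, 56 of 1683 in uninjured and 43 of 1188 in injured retinas. The members were therefore chosen on Opn4, and its values are given as a description without a test. The animals were mice of both sexes, 12 weeks old, and each batch pooled 10 retinas. The labels name no strain or genotype for these samples, and the study's methods name 129S1/SvImJ mice, wild-type or with a Thy1-YFP reporter. RGCs were Thy1-immunopanned after depletion of macrophages (the study's methods add amacrine cells), and injured RGCs were taken 2 weeks after ONC, which severs the axons of RGCs in the nerve. There were 6 uninjured samples and 3 injured samples (injured 1, injured 2 and injured 3/4), because 421 of the 471 barcodes of the library injured 4 also occurred in injured 3 and were counted once. Nothing in the labels ties the samples to separate animals beyond the pooling, so p-values measure the spread between these pools, taken as independent.

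Melanopsin is a photopigment that makes a small set of RGCs sensitive to light by themselves. These intrinsically photosensitive RGCs set the circadian clock and the pupil reflex, signal through Gq proteins, phospholipase C and TRPC channels, and release the peptide PACAP, encoded by Adcyap1, beside glutamate. Eomes (Tbr2) is a T-box transcription factor needed to form and keep them, and melanopsin RGCs are known as one of the RGC kinds that outlast axon injury longer than most.

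Levels are given as UPM, the UMIs of a gene per 1000000 UMIs of the cells of a class in a sample. In uninjured Opn4 cells, Opn4 ranged from 498 to 892 UPM over the samples, with a median of 694 UPM. In injured Opn4 cells it was 521 UPM in injured 1, 487 UPM in injured 2 and 402 UPM in injured 3/4. Of the uninjured samples only uninjured 6 lay below injured 1, and none lay below injured 2 or injured 3/4. The cells nearest the threshold held 1.02 Opn4 UMIs per 10000 inside it, and 0.979 per 10000 outside it among cells with at least 2 Opn4 UMIs. A single Opn4 UMI was present in 22 uninjured and 51 injured cells that were left out, at up to 3.07 per 10000. Other injured cells held Opn4 at 4.38 to 6.53 UPM and other uninjured cells at 0 to 1.23 UPM.

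**Figure D1:**
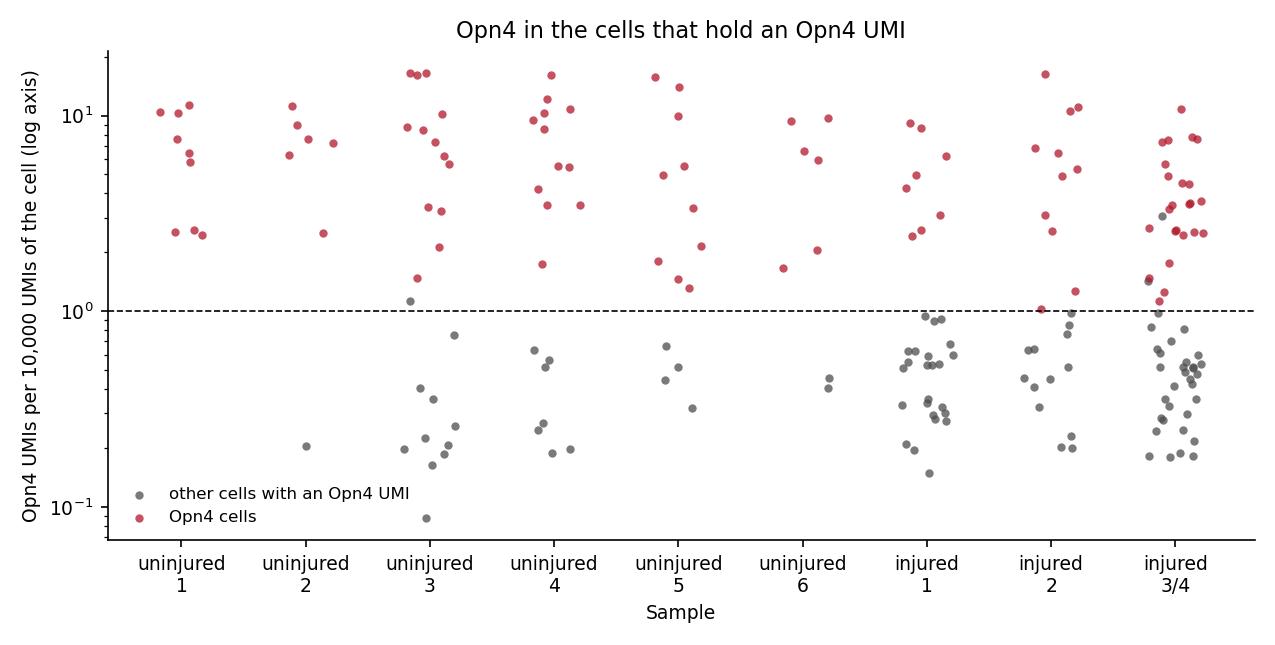
Each point is a cell that holds an Opn4 UMI, placed by its sample and by its Opn4 UMIs per 10000 UMIs on a log axis, with the threshold of 1 per 10000 as a dashed line. The 99 Opn4 cells (red) reach 16.5 per 10000, and grey points above the line are cells with a single Opn4 UMI.

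The label of a melanopsin RGC was checked against Eomes and Adcyap1, which the selection did not use. Eomes had a UMI in all 56 Opn4 cells of uninjured samples and in 34 of the 43 of injured samples, against 5.41% of other uninjured and 2.53% of other injured cells. After every cell was thinned to 8000 UMIs, the shares were 92.9% and 66.7% of Opn4 cells against 3.13% and 1.70% of other cells, and 56 of 56 uninjured and 42 of 43 injured Opn4 cells and 1598 of 1627 and 1000 of 1145 other cells were deep enough to enter. Eomes reached 224 to 650 UPM in uninjured Opn4 cells (median 494 UPM) and 282, 294 and 201 UPM in injured 1, 2 and 3/4. Other cells held Eomes between 0.859 and 9.60 UPM in all 9 samples. Adcyap1 reached 217 to 529 UPM in uninjured Opn4 cells (median 411 UPM) and 433, 648 and 415 UPM in the injured samples. Other cells held Adcyap1 at 22.4 to 35.1 UPM uninjured and 66.0 to 99.1 UPM injured, so the levels of the classes did not overlap in either condition. By cell, Adcyap1 had a UMI in 48 of 56 uninjured and 36 of 43 injured Opn4 cells, against 43.7% and 45.6% of other cells. Thinned to 8000 UMIs the shares were 78.6% and 81.0% of Opn4 cells against 17.3% and 33.3% of other cells. In injured 1 the share was no higher in Opn4 cells, with 3 of 8 (37.5%) against 41.2% of other cells, and 1 cell held 33 of the 49 Adcyap1 UMIs of its Opn4 cells. The markers of melanopsin RGCs were thus present in the selected cells of both conditions, while 9 injured Opn4 cells held no Eomes UMI and 7 no Adcyap1 UMI.

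Opn4 (chr14:34312575-34322099, minus strand) and Eomes (chr9:118307280-118315200, plus strand) are the genes by which these cells were selected and checked. The 250 bases before their annotated starts (GENCODE on GRCm39, the mm39 build of the files) are shown because Eomes encodes a T-box factor, and they were searched on both strands for the T-box motif AGGTGT. The third window belongs to Gna14, a Gq-class G protein gene that marked the Opn4 cells, and its match is in capitals.
Opn4, chr14:34322100-34322349, minus strand: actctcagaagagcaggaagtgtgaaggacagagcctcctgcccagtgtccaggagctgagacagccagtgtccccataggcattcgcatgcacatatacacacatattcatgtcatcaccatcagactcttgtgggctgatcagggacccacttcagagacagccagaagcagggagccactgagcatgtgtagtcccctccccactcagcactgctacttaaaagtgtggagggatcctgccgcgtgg
Eomes, chr9:118307030-118307279, plus strand: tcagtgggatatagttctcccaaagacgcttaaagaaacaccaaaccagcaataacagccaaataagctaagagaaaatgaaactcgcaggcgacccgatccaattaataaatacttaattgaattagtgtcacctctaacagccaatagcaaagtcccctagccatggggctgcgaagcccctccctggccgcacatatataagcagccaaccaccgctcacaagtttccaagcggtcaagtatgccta
Gna14, chr19:16412731-16412980, plus strand: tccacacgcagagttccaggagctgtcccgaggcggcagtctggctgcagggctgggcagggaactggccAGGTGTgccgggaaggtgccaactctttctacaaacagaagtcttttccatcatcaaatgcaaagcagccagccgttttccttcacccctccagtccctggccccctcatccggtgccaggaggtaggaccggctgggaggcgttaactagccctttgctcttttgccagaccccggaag
The motif was found 180 bases before the start of Gna14 and not in the windows of Opn4 and Eomes. Of 21757 windows of protein-coding genes, 12.3% held it, and of the 12 windows of the melanopsin RGC marker genes 3 did (Adcyap1, Igf1 and Il1rapl2).

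Libraries stood apart in ways that touch the injured Opn4 cells. The gene table lists mCherry, a red fluorescent reporter, and the labels name no vector for these samples. In injured 3/4 it had UMIs in 24 of 24 Opn4 cells and 457 of 553 other cells. In injured 1 and 2 together the counts were 0 of 19 Opn4 cells and 68 of 592 other cells, and uninjured samples held none. The female transcript Xist was found in 15 of 19 Opn4 cells of injured 1 and 2 and in 0 of the 56 uninjured Opn4 cells and 0 of the 24 Opn4 cells of injured 3/4. Condition, sex and library therefore cannot be told apart for single samples, and the main counts for injured Opn4 cells are also given without injured 3/4. Total UMIs per library were 2839693 to 23180399 uninjured and 4698799 to 8860536 injured, and those of the Opn4 cells 174770 to 474138 per uninjured sample. Uninjured samples resembled each other in pairs in the median share per cell of Malat1, a nuclear RNA, in other cells. It was 4.79% and 4.95% in uninjured 1 and 2, 3.14% and 3.45% in 3 and 4, and 1.72% and 1.83% in 5 and 6. The labels do not say whether such samples share a batch, and the main fits treated them as separate. The alternative with similar libraries summed joined these pairs, and injured 1 with injured 2.

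Opn4 cells made up 4.53% ± 2.63 (SD, n = 6) of cells in uninjured and 3.52% ± 1.00 (SD, n = 3) in injured samples. The shares ran from 1.84% to 9.18% in uninjured samples and overlapped those of injured samples. The difference was -1.01 percentage points and is given without a test, since the Opn4 UMIs that make up the share also chose the members. The median depth of other cells was 27670 UMIs uninjured and 14048 UMIs injured, and 2 Opn4 UMIs are reached less readily in shallower cells. Cells with at least 1 Opn4 UMI made up 5.79% ± 2.24 of uninjured and 9.38% ± 0.549 of injured cells, a count in which single UMIs were not set against a background share. Leaving out cells with markers of another retinal class gave a difference of 1.29 percentage points. That step removed 80.4% of uninjured and 16.3% of injured Opn4 cells, against 55.2% and 19.9% of other cells, so it lowered the uninjured share most. The sign of the difference thus changed with the count used, and these counts cannot decide its direction. A share of captured cells does not count cells in the retina, since each sample was immunopanned.

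Opn4 cells held more UMIs than the other cells of their sample in 9 of 9 samples. The mean log2 ratio of the median UMIs was 0.16 ± 0.16 (SD, n = 9). It is given as a description without a test, because the selection favours deep cells, in which 2 Opn4 UMIs are reached more readily. With at least 3 Opn4 UMIs and 2 per 10000 the ratio was 0.08 and was above 0 in 7 of 9 samples.

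Opn4 cells were then compared with all other cells of the same library, to find which genes set them apart (edgeR quasi-likelihood test with the library as a block, Benjamini-Hochberg adjusted p under 0.05). Of 12226 genes tested, Opn4 left out of the counts, 1065 (8.71%) were higher and 1101 (9.01%) lower in uninjured Opn4 cells, and 852 (6.97%) were higher and 919 (7.52%) lower in injured ones. A gene could enter this fit through the class in which it was high, so the counts over a list describe the list and are no support for its direction. Fold changes come from this fit, whose scaling differs from UPM, and the median log2 difference over all genes was -0.06 uninjured and -0.12 injured. Of the 10 tested genes of the melanopsin RGC marker list, 8 were higher in both conditions, with a median log2 difference of 4.79 uninjured and 4.57 injured. With at least 10 UMIs in every sum 2 of the markers were tested, and both were higher in both conditions. Without injured 3/4, 6 of 11 tested markers were higher and 0 lower in injured Opn4 cells. The list was Adcyap1, Tbx20, Nmb, Rasgrp1, Baiap3, Irx1, Igf1, Anxa2, Gem, Il1rapl2 and Eomes, and Irx1 was too low to test. Anxa2 was lower in uninjured Opn4 cells, at 0 to 14.7 UPM against 17.6 to 69.6 UPM, and Il1rapl2 was not called in either condition.

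Eomes was higher by 5.93 ± 0.38 (log2 ± SE, n = 6 libraries) in uninjured and by 6.33 ± 0.61 (n = 3) in injured Opn4 cells, with edgeR adjusted p of 1.1e-05 and 1.9e-04. Adcyap1 was higher by 3.75 ± 0.26 and 2.38 ± 0.35 (edgeR adjusted p = 1.1e-06 and 7.0e-04). Tbx20, a T-box factor of the melanopsin lineage, had 121 to 345 UPM in uninjured Opn4 cells (median 188 UPM) and 327, 101 and 246 UPM in injured 1, 2 and 3/4. In other cells Tbx20 stayed between 2.23 and 24.2 UPM. The class difference was 4.20 ± 0.51 uninjured and 5.58 ± 0.81 injured (edgeR adjusted p = 8.7e-04 and 0.0029).

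Igf1, which encodes a growth factor, was higher by 3.16 ± 0.42 and 3.99 ± 0.60 (edgeR adjusted p = 0.0013 and 0.0035). It had 326 to 740 UPM in uninjured Opn4 cells (median 468 UPM) and 1077, 446 and 785 UPM in injured 1, 2 and 3/4. Rasgrp1, a Ras activator that responds to diacylglycerol, was at 114 to 419 UPM in uninjured (median 230 UPM) and 53.0, 138 and 91.1 UPM in injured Opn4 cells, against 1.37 to 4.26 UPM in other cells. Its class difference was 5.95 ± 0.22 and 5.53 ± 0.39 (edgeR adjusted p = 5.5e-19 and 9.3e-12). Nmb, which encodes neuromedin B, ran from 13.8 to 248 UPM in uninjured Opn4 cells (median 42.6 UPM), and uninjured 3 stood apart from the other uninjured samples. These markers separated the classes in both conditions, and none of the 10 tested markers passed the test of a difference in response to injury, which 3.3% of all genes passed upward and 3.51% downward.

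**Figure D2:**
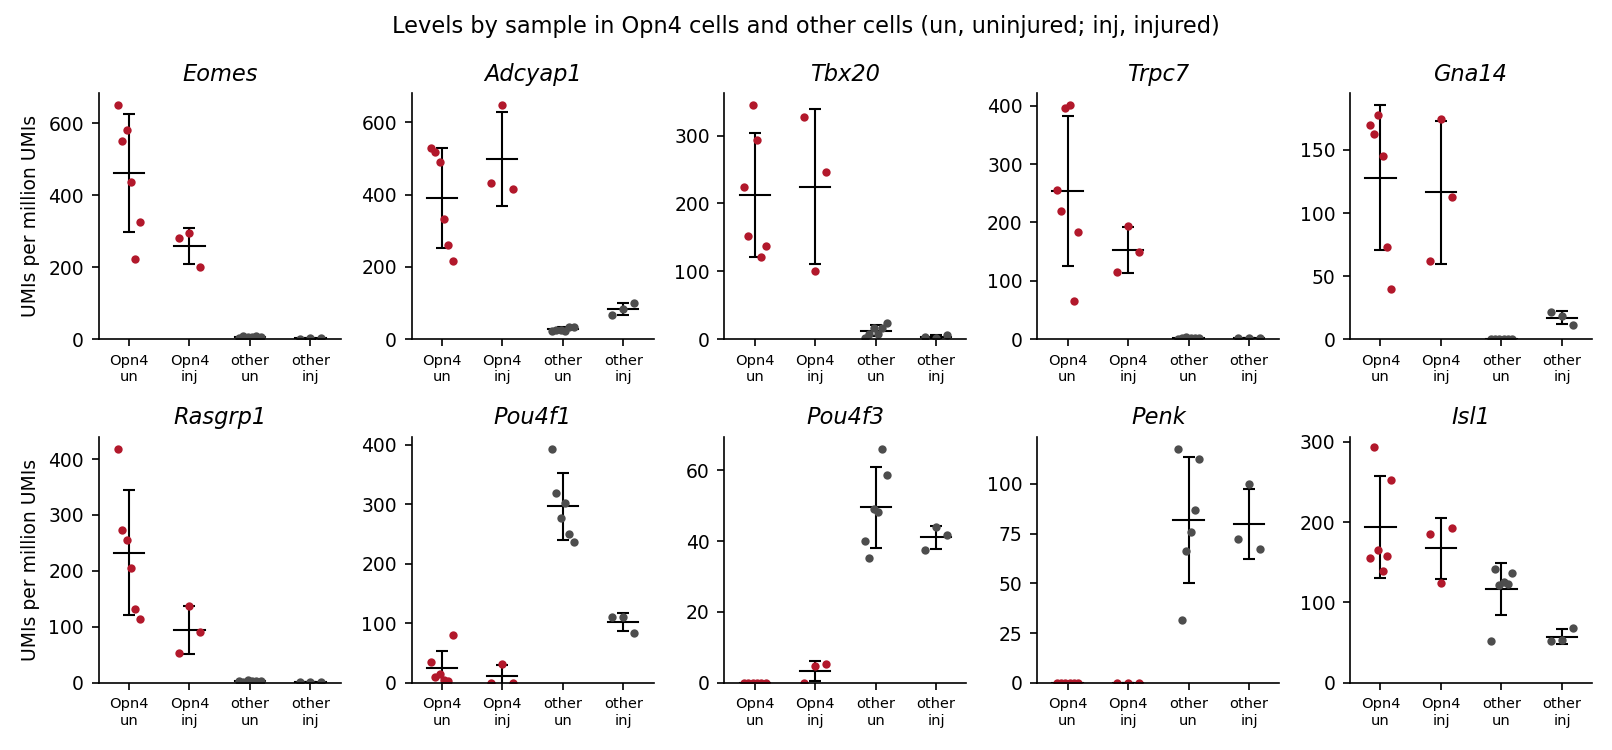
Levels in UPM of 10 genes in Opn4 cells (red) and other cells (grey), for uninjured (un, n = 6) and injured (inj, n = 3) samples, with bars at the mean and error bars of 1 SD over samples. Eomes, Tbx20, Trpc7 and Rasgrp1 lie near 0 in other cells in both conditions, Pou4f3 and Penk lie near 0 in Opn4 cells, and in other cells Gna14 lies near 0 uninjured and higher injured.

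The signalling chain from melanopsin was listed next, from G proteins through phospholipase C and TRPC channels to the proteins that end the response. Of 20 tested genes of the chain, 7 were higher and 5 lower in uninjured Opn4 cells, and 4 were higher and 0 lower in injured ones. Over all genes the shares were 8.71% higher and 9.01% lower uninjured and 6.97% and 7.52% injured. Among G proteins, Gna14 was higher by 8.81 ± 0.33 in uninjured and 2.72 ± 0.32 in injured Opn4 cells (edgeR adjusted p = 7.6e-18 and 3.5e-07). Gna14 had 40.1 to 178 UPM in uninjured Opn4 cells (median 154 UPM) and 61.8, 175 and 113 UPM in injured 1, 2 and 3/4. Gna14 in other cells was 0 to 0.491 UPM uninjured and 21.8, 18.5 and 11.3 UPM injured. The Gna14 levels of Opn4 cells overlapped between conditions while those of other cells did not, and the difference of the 2 responses was -6.09 ± 0.47 (edgeR adjusted p = 3.5e-09).

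Gnaq, the more widely used Gq gene, was higher by 0.54 ± 0.13 in uninjured Opn4 cells (edgeR adjusted p = 0.0038) and by 0.41 ± 0.19 in injured ones (edgeR adjusted p = 0.16, not called). Plcb4, the phospholipase C of the cascade, was not called, at 0.25 ± 0.15 and 0.54 ± 0.21 (edgeR adjusted p = 0.29 and 0.077). It was present in 56 of 56 uninjured and 42 of 43 injured Opn4 cells, and its UPM levels in other cells were of the same order. Among the channels, Trpc7 was higher by 6.73 ± 0.26 and 5.97 ± 0.39 (edgeR adjusted p = 6.2e-14 and 6.8e-10). Trpc7 had 66.1 to 401 UPM in uninjured Opn4 cells (median 238 UPM) and 115, 193 and 150 UPM in injured 1, 2 and 3/4, against 1.18 to 3.36 UPM in all other cells. Trpc6 was higher by 1.81 ± 0.24 and 1.97 ± 0.38 (edgeR adjusted p = 1.2e-05 and 0.0011). Both of these channel genes were thus higher in Opn4 cells of either condition.

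Rgs4, which speeds the shut-off of Gq signalling, had 211 to 749 UPM in uninjured Opn4 cells (median 334 UPM) and 759, 671 and 501 UPM in injured 1, 2 and 3/4. In other cells Rgs4 was 74.5 to 243 UPM uninjured and 79.7, 71.0 and 51.0 UPM injured. Its class difference was 1.34 ± 0.13 uninjured and 3.08 ± 0.19 injured, and the difference of the responses was 1.74 ± 0.22 (edgeR adjusted p = 7.9e-10, 7.0e-14 and 2.2e-06). Genes lower in uninjured Opn4 cells included Plcb1, by -2.41 ± 0.41, and the IP3 receptor gene Itpr1, by -2.70 ± 0.42 (edgeR adjusted p = 0.0043 and 0.0013).

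Other genes led the class by size. In uninjured Opn4 cells these were Cd24a, Gldn, Gna14, Cdkn1c, Trpc7, Prkcq, Rasgrp1, Eomes, Dgkg and Zcchc12. Gldn, which encodes a protein first known from the node of Ranvier, was at 28.6 to 437 UPM in uninjured Opn4 cells (median 96.8 UPM, uninjured 3 standing apart) and at 265, 138 and 198 UPM in injured 1, 2 and 3/4. Other cells held at most 1.68 UPM of Gldn, and the difference was 9.12 ± 0.35 and 6.94 ± 0.37 (edgeR adjusted p = 3.9e-18 and 5.2e-14). Cd24a, a small surface glycoprotein, was at 17.2 to 332 UPM in uninjured Opn4 cells (median 163 UPM) and at 221, 138 and 139 UPM in injured 1, 2 and 3/4. Other cells moved from 0 to 0.667 UPM of Cd24a uninjured to 6.40 to 20.4 UPM injured. Prkcq and Dgkg, a kinase and an enzyme of diacylglycerol signalling, were higher by 6.43 ± 0.48 and 4.73 ± 0.44 in uninjured Opn4 cells (edgeR adjusted p = 2.3e-05 and 1.3e-04). The cell cycle inhibitor gene Cdkn1c varied most, from 86.5 to 2799 UPM in uninjured Opn4 cells (median 359 UPM) with 0, 4.60 and 166 UPM in injured 1, 2 and 3/4, and its injured difference was not called.

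Of 24 tested markers of other RGC kinds, 13 were lower, 3 (Spp1, Kcng4 and Fst) higher and 8 not called in uninjured Opn4 cells, and 6 were lower and 0 higher in injured ones. This compares with 9.01% of all genes lower and 8.71% higher uninjured, and 7.52% and 6.97% injured. The 3 higher markers were seen in few of the 56 uninjured Opn4 cells, with a UMI of Spp1 in 7, Kcng4 in 4 and Fst in 11. Only 6 of the markers were high enough to test within Opn4 cells, and Penk, Bnc2, Tbr1, Zic1, Neurod2 and Tfap2d had 0 UMIs in uninjured Opn4 cells, so for these genes lower was the sole direction a call could take. Penk, which encodes enkephalins, had 0 UMIs in all 99 Opn4 cells, against 31.5 to 118 UPM in other cells of the 9 samples. Measured against a floor of 3 counts over the group, it was at least 47.7-fold lower uninjured and at least 17.9-fold lower injured. Pou4f3, a POU factor of RGCs, had 0 UMIs in uninjured Opn4 cells and was at least 31.0-fold lower there (pooled level of other cells 50.1 UPM). Its relative Pou4f1 was at 3.67 to 80.1 UPM in uninjured Opn4 cells (median 12.9 UPM) against 237 to 393 UPM in other cells, a difference of -3.92 ± 0.55 (edgeR adjusted p = 0.0018). Foxp2, a transcription factor of other RGC kinds, was lower by -7.71 ± 0.44 (edgeR adjusted p = 1.7e-15). Foxp1, a related factor, had a UMI in 53 of 56 uninjured Opn4 cells at a pooled 146 UPM and was not called (0.05 ± 0.15, edgeR adjusted p = 0.89).

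Of 19 tested genes of general RGC identity, 11 were lower and 4 higher in uninjured Opn4 cells, and 4 were lower and 4 higher in injured ones, where 9.01% and 8.71% of all genes were lower and higher uninjured and 7.52% and 6.97% injured. Slc17a6, the vesicular glutamate transporter of RGCs, was at 183 to 298 UPM in uninjured Opn4 cells (median 238 UPM) and at 274, 368 and 319 UPM in injured 1, 2 and 3/4. Other cells held 346 to 503 UPM and 419 to 554 UPM of Slc17a6, which was lower by -0.87 ± 0.14 and -0.76 ± 0.19 in Opn4 cells (edgeR adjusted p = 1.1e-05 and 0.0057). Thy1, the antigen of the immunopanning, was lower by -0.78 ± 0.14 and -0.96 ± 0.21 (edgeR adjusted p = 8.9e-05 and 0.0016). Isl1 and Ebf3, transcription factors found in RGCs, were higher in both conditions, by 0.69 ± 0.15 and 1.34 ± 0.23 for Isl1 and by 0.92 ± 0.15 and 1.05 ± 0.21 for Ebf3 (edgeR adjusted p from 2.2e-05 to 1.0e-03). Isl1 and Ebf3 were thus among the 4 identity genes that were higher in each condition.

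Of 24 tested transmitter and peptide genes, 9 were higher and 7 lower in uninjured Opn4 cells, against 8.71% and 9.01% of all genes. Gal, which encodes galanin, was at 51.5 to 320 UPM in uninjured Opn4 cells (median 179 UPM) and 3.92 to 44.4 UPM in other cells, a difference of 3.18 ± 0.58 (edgeR adjusted p = 0.0075). After injury the classes overlapped, at 44.1, 414 and 206 UPM in Opn4 cells and 220, 471 and 160 UPM in other cells of injured 1, 2 and 3/4. Gad2, an enzyme of GABA synthesis, was higher by 1.90 ± 0.45 in uninjured Opn4 cells (edgeR adjusted p = 0.020) at 18.4 to 224 UPM. Nppb, which encodes the B-type natriuretic peptide, was at 114 to 215 UPM in uninjured Opn4 cells (median 145 UPM) against 1.96 to 11.8 UPM in other cells, a difference of 4.94 ± 0.32 (edgeR adjusted p = 7.1e-08).

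Of 15 tested immediate early genes, 7 were higher and 0 lower in uninjured Opn4 cells, and 5 were higher and 1 lower in injured ones (over all genes 8.71% and 9.01% uninjured, 6.97% and 7.52% injured). Nr4a1, an orphan nuclear receptor gene, was at 21.1 to 126 UPM in uninjured Opn4 cells (median 46.2 UPM) and 61.8, 27.6 and 72.3 UPM in injured 1, 2 and 3/4. Other cells held 10.6 to 14.4 UPM uninjured and 1.12 to 1.37 UPM injured, and the class difference was 2.05 ± 0.30 and 5.27 ± 0.58 (edgeR adjusted p = 1.4e-05 and 2.3e-07). These genes also respond to dissociation of tissue, whose part was not tested. Of 21 tested clock genes, Per1 and Per2 were higher and 4 lower in uninjured Opn4 cells, where 8.71% of all genes were higher and 9.01% lower, so the number higher was near that share. Per1 and Per2 differed by 1.20 ± 0.34 and 1.00 ± 0.34 (edgeR adjusted p = 0.016 and 0.036).

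Markers of other retinal classes were counted in the same cells. Of 8 amacrine markers the summed level was 315 to 514 UPM in uninjured Opn4 cells and 493 to 639 UPM in other cells, and 1 of 7 tested markers (Pax6) was lower in Opn4 cells. Of 7 Müller glia markers the summed level was 177 to 331 UPM against 205 to 283 UPM, with no call among 5 tested. In injured samples these sums were 244 to 468 UPM against 159 to 290 UPM for amacrine markers and 159 to 441 UPM against 288 to 437 UPM for Müller glia markers. The 6 rod markers summed to at most 8.44 UPM and the 5 vascular markers to at most 5.24 UPM in uninjured Opn4 cells, and rod markers were at 0 in injured ones. Prkca, the 1 tested bipolar marker, and S100b, the 1 tested astrocyte marker, were called higher in uninjured Opn4 cells and not in injured ones. The 7 bipolar markers summed to 158 to 391 UPM against 73.3 to 141 UPM uninjured, and 182 to 221 UPM against 110 to 150 UPM injured. The 5 astrocyte markers summed to 6.92 to 132 UPM against 4.95 to 21.4 UPM uninjured, and 9.20 to 17.7 UPM against 5.39 to 6.92 UPM injured. Of the Opn4 cells, 45 of 56 in uninjured and 7 of 43 in injured samples held at least 3 markers of 1 other class (80.4% and 16.3%). Among other cells the counts were 898 of 1627 and 228 of 1145 (55.2% and 19.9%), so the share was lower in injured than in uninjured samples in both classes. Median depth was also lower after injury, at 30178 and 15005 UMIs in Opn4 cells and 27670 and 14048 UMIs in other cells. The part of depth in these shares was not tested. Without the cells with at least 3 such markers 11 uninjured Opn4 cells remained, none of them in uninjured 4, and 36 injured ones. In that setting 884 of 10025 genes were called uninjured, 276 higher and 608 lower, and 1160 injured, 616 higher and 544 lower. Of 9 tested melanopsin markers, 8 were then higher and 1 lower uninjured, and 7 were higher and 2 lower injured.

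RGCs also include cells with Eomes and little Opn4, which were compared with Opn4 cells in the 3 uninjured samples that held at least 5 of each (uninjured 3, 4 and 5). These were the cells outside the selection with at least 2 Eomes UMIs, 41 in all uninjured samples. Of 6431 genes, 150 (2.33%) were higher and 142 (2.21%) lower in Opn4 cells (edgeR quasi-likelihood test, adjusted p under 0.05, Eomes among them as a gene that chose the second class). Gna14 was higher by 8.75 ± 0.67, Cd24a by 7.59 ± 0.52 and Gldn by 7.46 ± 0.57 (edgeR adjusted p = 7.1e-06, 2.5e-06 and 2.8e-06). Adcyap1 was higher by 4.31 and Trpc7 by 4.03, and both kept the call in the 5 alternatives tried. Pou4f1 was lower by -3.60 ± 0.42 (edgeR adjusted p = 8.4e-05), a call lost when 1 Eomes UMI sufficed for the second class, and Tbx20 and Igf1 were not called. The count fell to 94 without uninjured 3 and to 46 without uninjured 4, and rose to 452 without uninjured 5.

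Injured and uninjured samples were next compared within Opn4 cells, to describe the response of these cells to ONC. Of 5904 genes tested, 57 (0.965%) rose and 40 (0.678%) fell (edgeR quasi-likelihood test with condition as the only term, adjusted p under 0.05). In other cells of the same samples 3084 (21.8%) of 14130 genes rose and 3249 (23%) fell, with far more cells per sample. With other cells thinned to the UMIs of the Opn4 cells of their sample, an alternative added after seeing the data, 1737 of 6081 genes (28.6%) were called, though the thinned sums still drew on more cells. Of 5892 genes tested in both classes, 95 were called in Opn4 cells and 2622 in other cells, and 83 were called in both, which is 87.4% of the former and 3.17% of the latter. In 81 of the 83 the direction was shared.

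Genes that rose in Opn4 cells included regulators of the injury response. Jun, the AP-1 factor induced by axon damage, was at 0 to 57.2 UPM in uninjured Opn4 cells (median 20.8 UPM) and at 230, 271 and 281 UPM in injured 1, 2 and 3/4. The groups did not overlap, and the rise was 3.66 ± 0.48 (edgeR adjusted p = 9.2e-04). Cdkn1a, a p53 target that halts the cell cycle, was at 0 to 15.4 UPM uninjured (median 5.24 UPM) and 141, 161 and 110 UPM injured, a rise of 4.29 ± 0.53 (edgeR adjusted p = 1.4e-04). Creb5, a CREB-family transcription factor, was at 0 to 11.4 UPM uninjured (median 8.86 UPM) and 380, 115 and 129 UPM injured, a rise of 4.78 ± 0.57 (edgeR adjusted p = 2.9e-04). Stmn4, a regulator of microtubules, was at 78.0 to 114 UPM uninjured (median 95.8 UPM) and 424, 382 and 597 UPM injured, a rise of 2.30 ± 0.23 (edgeR adjusted p = 4.7e-06). Jun, Cdkn1a, Creb5 and Stmn4 rose in each of the 21 to 24 alternative settings that tested them.

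Thbs1, which encodes the secreted glycoprotein thrombospondin 1, was at 0 to 19.8 UPM in uninjured Opn4 cells (median 3.95 UPM, uninjured 3 standing apart) and 88.3, 96.6 and 37.5 UPM in injured 1, 2 and 3/4. It rose by 3.28 ± 0.63 (edgeR adjusted p = 0.0057), and the call was lost without injured 1 or without injured 2. In other cells Thbs1 did not exceed 2.13 UPM in any sample, and injured Opn4 cells were higher by 6.22 ± 0.85 (edgeR adjusted p = 8.1e-06). The difference of the responses was 2.69 ± 1.23 and was not called (edgeR adjusted p = 0.23). Cntnap5b, a contactin-associated adhesion gene, was at 11.4 to 85.6 UPM uninjured (median 24.1 UPM) and 344, 170 and 257 UPM injured, a rise of 2.78 ± 0.43 (edgeR adjusted p = 0.0028). In other cells it was 13.7 to 66.9 UPM uninjured and 14.7 to 37.1 UPM injured, and the responses differed by 3.53 ± 0.35 (edgeR adjusted p = 8.9e-08).

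Serpina3n, Vgf and H2-K1 rose as well. Vgf, a secreted neuropeptide precursor, rose by 3.18 ± 0.44 (edgeR adjusted p = 3.6e-04) from 0 to 33.1 UPM uninjured to 159, 82.8 and 185 UPM in injured 1, 2 and 3/4. The call for Serpina3n was lost without injured 2, and that for H2-K1, a class I histocompatibility gene, without injured 2 or without injured 3/4. None of the 8 tested melanopsin markers and none of the 13 tested genes of the melanopsin cascade passed the test. Few genes passed in this comparison at all (0.965% rose and 0.678% fell), and the median change was -0.96 for the 8 markers and -0.19 for the 13 cascade genes, against -0.01 over all genes tested. Eomes changed by -0.86 ± 0.30 (edgeR adjusted p = 0.15) and Trpc7 by -0.75 ± 0.44 (edgeR adjusted p = 0.44).

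**Figure D3:**
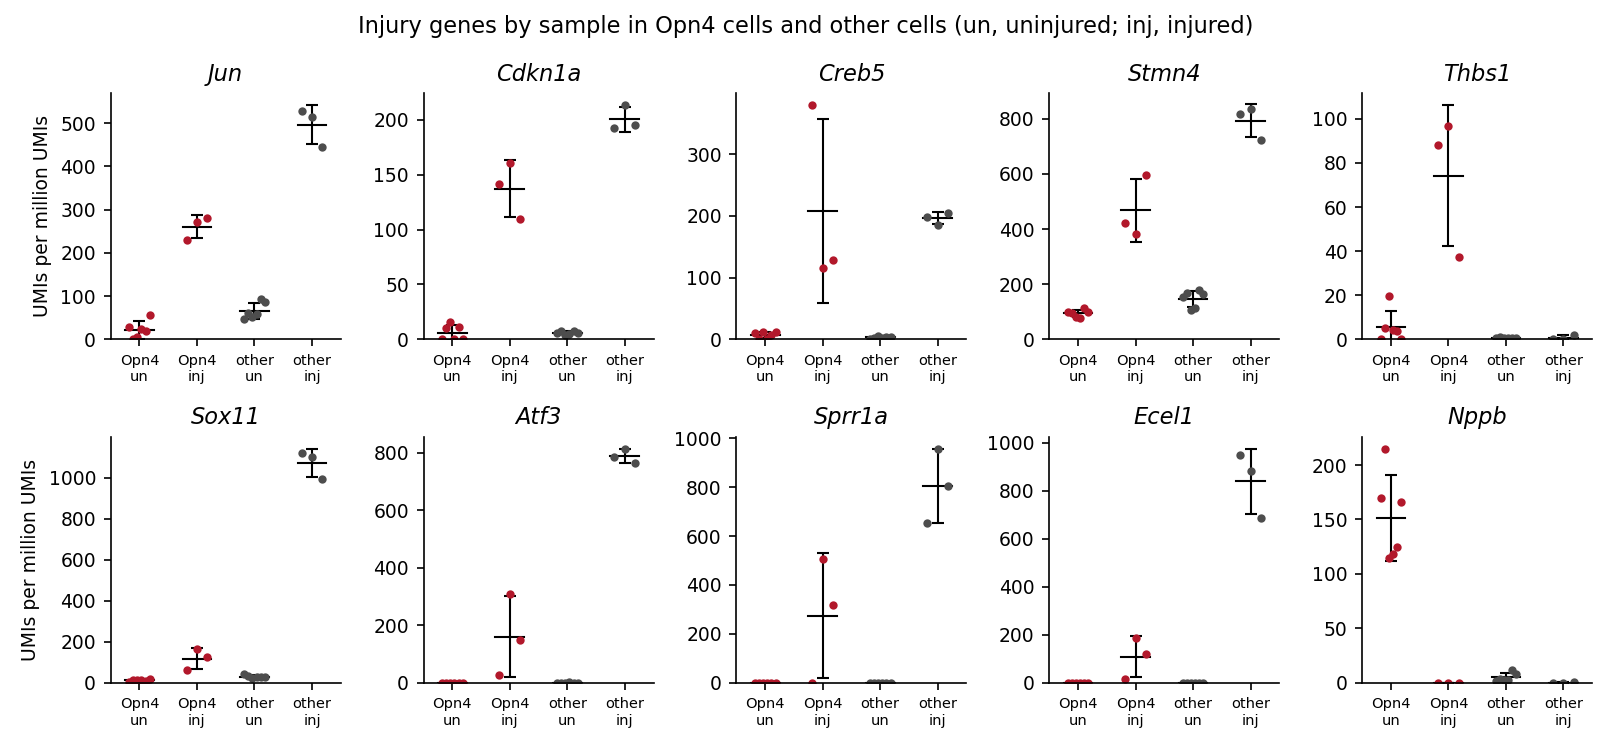
Levels in UPM of 10 genes in Opn4 cells (red) and other cells (grey) of uninjured (un, n = 6) and injured (inj, n = 3) samples, with the mean and 1 SD over samples. Jun, Cdkn1a, Creb5 and Stmn4 rise in both classes, Thbs1 lies near 0 in other cells, Nppb is at 0 UPM in injured Opn4 cells, and Atf3, Sprr1a and Ecel1 lie lower in injured Opn4 cells than in injured other cells.

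Among genes that fell in Opn4 cells, Nppb had no UMI in any of the 43 injured cells. Against the floor of 3 counts over the group it was at least 33.0-fold lower than its pooled uninjured level of 141 UPM, and the call (edgeR adjusted p = 3.5e-06) held in the 23 alternative settings that tested it. Nppb fell in other cells too, and the difference of the responses was not called (edgeR adjusted p = 0.47). Cdhr1, a cadherin-related gene, fell from 21.1 to 91.5 UPM (median 47.9 UPM) to 0 in injured Opn4 cells, at least 10.1-fold (edgeR adjusted p = 0.0023), while other cells held 0.619 to 2.22 UPM uninjured and 1.89 to 5.13 UPM injured. Rps3a1, a ribosomal protein gene, fell by 3.15 ± 0.33 in Opn4 cells and fell by 2.03 ± 0.28 in other cells (edgeR adjusted p = 6.6e-06 and 1.0e-04). In Opn4 cells Rpl29 fell by 2.67 ± 0.32 and Hjurp fell by 2.97 ± 0.42 (edgeR adjusted p = 2.5e-05 and 2.2e-04), and both fell in other cells too. Kcna2, an axonal potassium channel gene, fell by 2.02 ± 0.45 (edgeR adjusted p = 0.022), and the call was lost without any 1 of the injured samples. Dbp, a clock output gene, fell by 1.58 ± 0.33 (edgeR adjusted p = 0.012).

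The axon injury list held 27 genes known to respond to axon damage, chosen with earlier results of these data known. In other cells 24 of the 27 rose and 2 (Nppb and Mapk10) fell, where 21.8% of all genes rose and 23% fell, with a median change of 3.67. In Opn4 cells 17 were high enough to test, of which 5 rose (Jun, Ddit3, Sox11, Stmn4 and Cdkn1a) and 1 fell (Nppb), where 0.965% of all genes rose and 0.678% fell, with a median change of 0.76. The number that rose depended on the samples and the filter, with 9 of 21 without injured 1, 9 of 22 with at least 10 Opn4 cells per sample, 9 of 22 with similar libraries summed and 12 of 27 with no filter on low counts. It was 3 of 14 under the stricter Opn4 selection (at least 3 Opn4 UMIs and 2 per 10000), 2 of 9 with cells thinned to 8000 UMIs, 2 of 10 without cells with markers of another class and 1 of 4 with at least 10 UMIs in every sum. Without injured 3/4 it was 4 of 17. Within injured samples 15 of the 27 were lower and 1 (Mapk10) higher in Opn4 cells than in other cells, with a median difference of -1.86, where 7.52% of all genes were lower and 6.97% higher. Without injured 3/4, 13 of the 27 were lower and 1 higher, where 424 of 12660 genes were lower and 419 higher. Of the 27, 10 were too low to test within Opn4 cells, such as Trib3 with 2 UMIs in injured ones, and with at least 10 UMIs in every sum 2 were lower and 1 higher of 4 tested. In uninjured samples 3 were lower and 4 higher, where 9.01% and 8.71% of all genes were. Over all genes 403 of 12226 (3.3%) had a response that was higher and 429 (3.51%) a response that was lower in Opn4 cells than in other cells. Responses are compared with their sign, so a smaller fall counts as higher and a smaller rise as lower. Of the 27 list genes, 8 had a lower response in Opn4 cells (Gadd45a, Cebpg, Atf5, Ddit3, Sox11, Klf6, Atf4 and Gap43) and Mapk10 a higher one, with a median difference of -1.31. Without injured 3/4 the lower count was 6, and over all genes 255 were lower and 203 higher. Without cells with markers of another class 4 list genes had a lower response, where 73 of 10025 genes had a lower and 341 a higher one. With at least 10 UMIs in every sum 1 was lower and 1 higher of 4 tested, where 234 of 2085 genes were lower and 243 higher. Malat1, a nuclear RNA, took 3.31% ± 1.39 (SD, n = 6) of UMIs in uninjured and 7.35% ± 0.704 (SD, n = 3) in injured other cells, and 2.64% ± 0.988 and 3.05% ± 0.382 in Opn4 cells. The median mitochondrial share per cell was 4.44% ± 1.15 and 2.62% ± 0.854 in other cells and 4.10% ± 1.07 and 2.01% ± 0.488 in Opn4 cells. The part of these shares in the difference of the responses was not tested.

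Gap43, a growth cone protein, was at 228 to 949 UPM in uninjured Opn4 cells (median 554 UPM) and at 609, 1269 and 892 UPM in injured 1, 2 and 3/4, where the groups overlapped. Other cells moved from 310 to 491 UPM to 2398 to 2647 UPM, and the responses differed by -1.92 ± 0.30 (edgeR adjusted p = 3.1e-04). Atf5, a stress-induced bZIP factor, was at 7.35 to 73.4 UPM in uninjured Opn4 cells (median 29.8 UPM) and 53.0, 41.4 and 75.01 UPM in injured 1, 2 and 3/4. Other cells moved from 11.3 to 16.1 UPM to 190 to 231 UPM, a difference of responses of -3.20 ± 0.41 (edgeR adjusted p = 5.2e-06). Ddit3, which encodes the stress factor CHOP, rose in Opn4 cells by 1.31 ± 0.30 (edgeR adjusted p = 0.024) and in other cells by 3.67 ± 0.12 (edgeR adjusted p = 2.4e-09). The responses for Ddit3 differed by -2.37 ± 0.29 (edgeR adjusted p = 1.7e-06), and its rise within Opn4 cells was not called without any 1 of the injured samples or without uninjured 4. The response of Opn4 cells was thus smaller for these genes, while that of Jun, Stmn4 and Cdkn1a was not called different (differences 0.66 ± 0.47, -0.30 ± 0.24 and -0.95 ± 0.65).

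**Figure D4:**
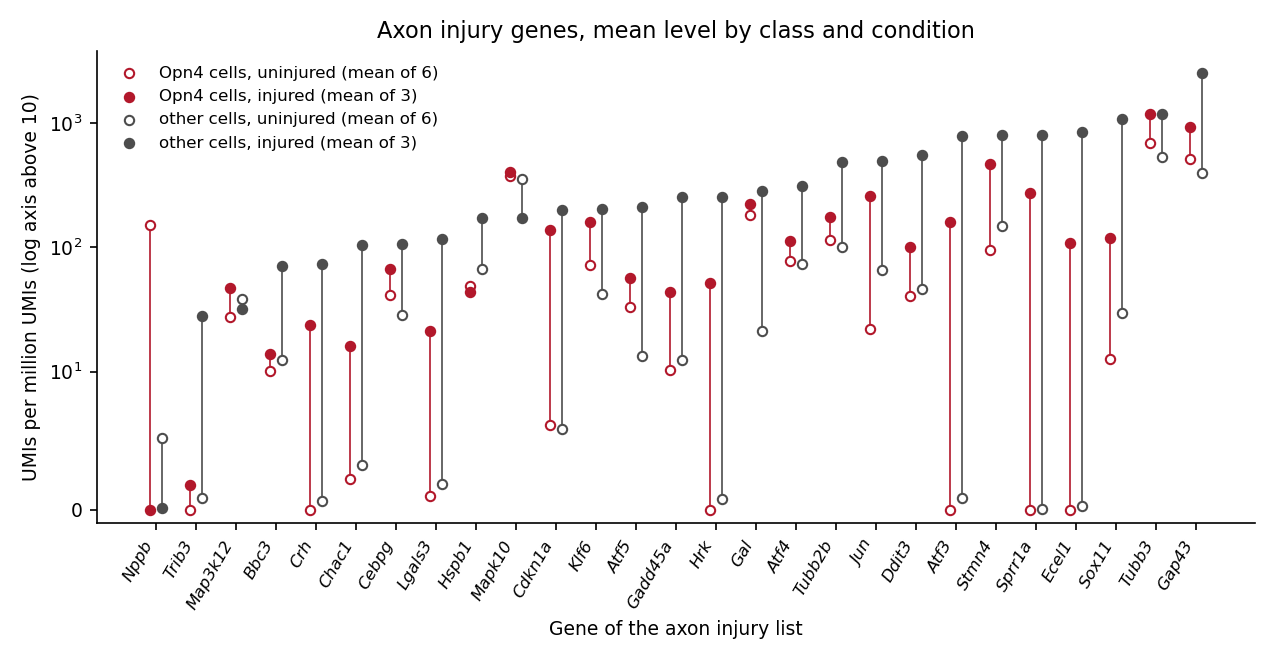
Mean level in UPM of the 27 axon injury genes (horizontal axis) in Opn4 cells (red) and other cells (grey), with open circles for uninjured (mean of 6 samples) and filled circles for injured (mean of 3), on an axis that is logarithmic above 10. For Gap43, Atf5 and Ddit3 the injured Opn4 cells lie below the injured other cells, and for Mapk10 they lie above.

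Atf3, Sprr1a and Ecel1, among the most raised genes in other injured cells, were seen in few Opn4 cells. Atf3 is a transcription factor of the damage response, Sprr1a a protein that accumulates in regrowing axons, and Ecel1 a peptidase induced by nerve injury. No UMI of these genes was found in the 56 uninjured Opn4 cells. In injured Opn4 cells, Atf3 was at 26.5, 308 and 147 UPM in injured 1, 2 and 3/4, Sprr1a at 0, 506 and 316 UPM, and Ecel1 at 17.7, 189 and 121 UPM. In other injured cells the same genes were at 765 to 815 UPM, 655 to 957 UPM and 688 to 949 UPM. The class difference in injured samples was -2.49 ± 0.72, -1.86 ± 0.98 and -2.99 ± 0.67 and was not called (edgeR adjusted p = 0.20, 0.42 and 0.13).

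Counted by cell, Atf3 had a UMI in 10 of 43 injured Opn4 cells (23.3%) against 89.4% of other injured cells, Sprr1a in 3 of 43 (6.98%) against 35.9%, and Ecel1 in 9 of 43 (20.9%) against 95.3%. The classes had median depths of 15005 and 14048 UMIs per cell. Thinned to 8000 UMIs, the shares were 21.4% and 88.9% for Atf3, 7.14% and 33.9% for Sprr1a, and 16.7% and 94.7% for Ecel1. Of the 43 cells 28 held no UMI of the 3 genes, against 2.88% of other injured cells. Most of the UMIs lay in 4 cells, which were singled out after the values were seen and are a description only. These 4 cells held 421 of the 441 UMIs of the 3 genes, had 1.02 to 1.27 Opn4 UMIs per 10000, close to the threshold, and 23829 to 39123 UMIs each. They came from injured 2 (2 cells) and injured 3/4 (2 cells), and 2 of them held no Eomes UMI. Whether these droplets held more than 1 cell was not tested.

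**Figure D5:**
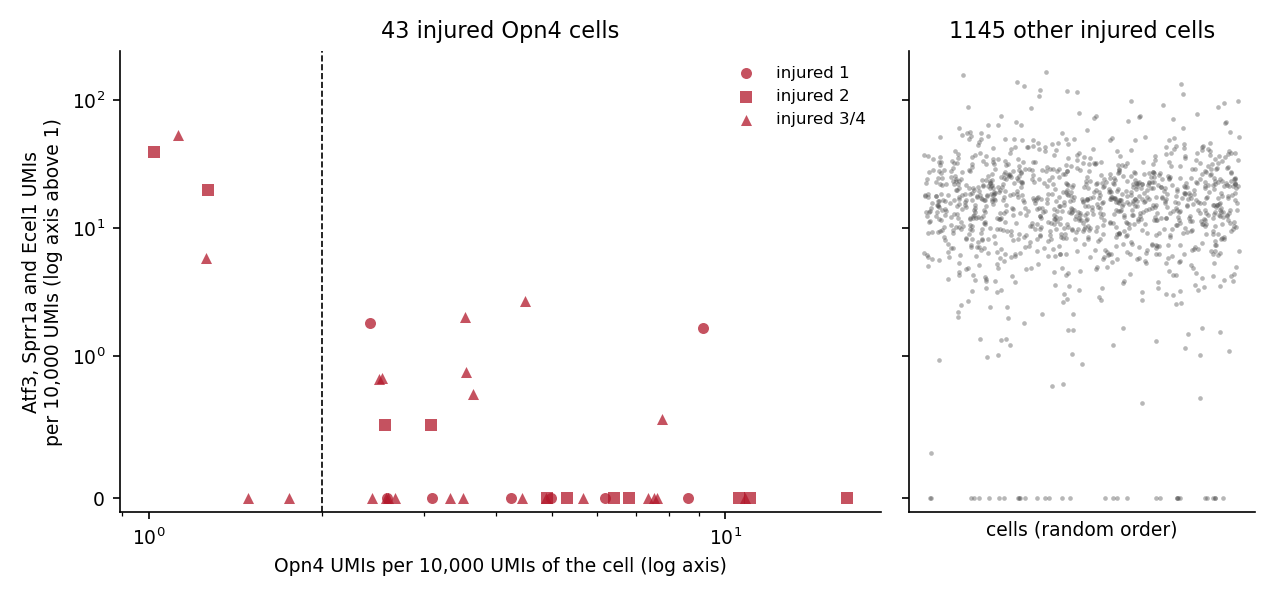
UMIs of Atf3, Sprr1a and Ecel1 together per 10000 UMIs of a cell (logarithmic above 1) against Opn4 UMIs per 10000 for the 43 injured Opn4 cells, by sample, with the 1145 other injured cells at the right in random order. The dashed line marks 2 Opn4 UMIs per 10000, and the 4 cells highest in the 3 genes lie between 1.02 and 1.27 on the horizontal axis.

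The stricter selection, at least 3 Opn4 UMIs and 2 per 10000, was planned as an alternative and left 35 injured and 50 uninjured Opn4 cells. Among these 35 cells Atf3 had a UMI in 6, Ecel1 in 5 and Sprr1a in 0, with pooled levels of 17.1, 20.9 and 0 UPM against 783, 812 and 794 UPM in other injured cells. Sprr1a was then at least 140-fold lower, against 3 counts over the group. Jun stayed in 29 of the 35 cells, at a pooled 222 UPM, and Hrk, a proapoptotic BH3 gene, in 18, at 56.9 UPM against 265 UPM in other injured cells. Sox11, a transcription factor of growing neurons, fell from a pooled 128 UPM over the 43 cells to 43.6 UPM over the 35, against 1059 UPM in other injured cells, and 67 of its 90 UMIs lay in the 4 cells. UMIs of all 27 list genes made up a median of 35.0 per 10000 UMIs in the 35 cells, 113 per 10000 in other injured cells and 24.0 per 10000 in uninjured Opn4 cells. With the stricter rule 256 of 4668 genes were called within Opn4 cells, 152 of them higher, and 3 of 14 tested list genes rose. In injured samples 21 of the 27 list genes were lower in Opn4 cells than in other cells, where 1379 of 12459 genes were lower. The response differed for 1339 of 12459 genes, 706 of them with a lower response in Opn4 cells, and 12 of the 27 list genes had a lower one. The 4 cells thus carried most of what the Opn4 cells showed of Atf3, Sprr1a and Ecel1.

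The windows before the starts of Sprr1a, Atf3 and Hrk are shown because UMIs of these genes were found in a smaller share of injured Opn4 cells than of other injured cells (Hrk in 53.5% against 88.7%). They were searched on both strands for the AP-1 motif TGANTCA and the C/EBP-ATF motif TGATGNAA, with matches in capitals as read on the printed strand.
Sprr1a, chr3:92393209-92393458, minus strand: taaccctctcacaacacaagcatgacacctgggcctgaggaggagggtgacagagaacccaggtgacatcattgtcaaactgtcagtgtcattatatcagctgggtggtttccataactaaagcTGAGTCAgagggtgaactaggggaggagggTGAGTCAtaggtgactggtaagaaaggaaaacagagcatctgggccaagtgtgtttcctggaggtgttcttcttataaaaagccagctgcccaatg
Atf3, chr1:190915538-190915787, minus strand: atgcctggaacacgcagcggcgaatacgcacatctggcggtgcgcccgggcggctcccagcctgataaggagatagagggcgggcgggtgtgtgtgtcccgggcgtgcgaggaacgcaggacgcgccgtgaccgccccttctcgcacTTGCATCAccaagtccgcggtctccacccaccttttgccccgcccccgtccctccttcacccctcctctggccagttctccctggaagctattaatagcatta
Hrk, chr5:118307528-118307777, plus strand: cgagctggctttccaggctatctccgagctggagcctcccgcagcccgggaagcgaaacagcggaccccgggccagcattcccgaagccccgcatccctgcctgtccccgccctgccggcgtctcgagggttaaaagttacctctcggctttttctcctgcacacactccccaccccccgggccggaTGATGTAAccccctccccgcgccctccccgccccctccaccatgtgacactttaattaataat
Sprr1a held 2 AP-1 matches, 126 and 96 bases before its start, and Atf3 and Hrk held 1 C/EBP-ATF match each, 103 and 63 bases before theirs. The window of Atf3 lies inside the span of longer annotated transcripts of the same gene. AP-1 matches were in 6.18% of all 21757 windows and in 3 of 28 windows of the axon injury list, and C/EBP-ATF matches in 3.39% and in 4 of 28, where 1 gene of the list has 2 windows. A match is a run of letters and was not tested for binding.

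Other genes had a higher response to injury in Opn4 cells than in other cells, on the signed log2 scale. A higher response in this sense can be a larger rise or a smaller fall. The largest differences of this sign of response were for Necab2, Trarg1, Htr1b, Hpca, Ly6h, Cntnap5b, Nptx1, Parm1, Csmd3 and Sox4, of which Trarg1 turned to the opposite sign under the stricter selection and without injured 2. Hpca, a neuronal calcium sensor, was at 78.0 to 173 UPM in uninjured Opn4 cells (median 153 UPM) and 61.8, 18.4 and 113 UPM in injured 1, 2 and 3/4. Other cells went from 175 to 349 UPM to 4.83 to 10.3 UPM, a difference of responses of 4.12 ± 0.55 (edgeR adjusted p = 5.0e-04). Htr1b, a serotonin receptor, was at 15.7 to 62.9 UPM uninjured (median 32.8 UPM) and 61.8, 9.20 and 26.8 UPM injured in Opn4 cells, against 51.1 to 65.3 UPM and 1.89 to 2.47 UPM in other cells. Its responses differed by 4.37 ± 0.69 (edgeR adjusted p = 2.3e-04). Csmd3, a large membrane protein of synapses, was at 200 to 302 UPM uninjured (median 248 UPM) and 415, 202 and 380 UPM injured in Opn4 cells. In other cells Csmd3 fell from 347 to 1300.5 UPM to 78.3 to 108 UPM, and the responses differed by 3.11 ± 0.32 (edgeR adjusted p = 2.6e-06). Ly6h, a neuronal surface protein, fell by 1.36 ± 0.28 in Opn4 cells and fell by 5.00 ± 0.48 in other cells (edgeR adjusted p = 0.012 and 6.7e-06).

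Of 31 tested neurotransmitter receptor genes, 9 had a higher response in Opn4 cells and 0 a lower one, where 3.3% of all genes had a higher and 3.51% a lower one, with a median difference of 0.96 against -0.05 over all genes. In other cells 24 receptor genes fell and 2 rose of 30 tested, where 23% of all genes fell and 21.8% rose. In Opn4 cells none of 19 tested passed, in a comparison where 0.678% of all genes fell and 0.965% rose. Against other cells, 13 of the 31 were already lower and 7 higher in uninjured Opn4 cells, where 9.01% and 8.71% of all genes were. In injured ones 4 were lower and 9 higher, where 7.52% and 6.97% of all genes were. Gabbr2, a GABA-B receptor subunit, was at 154 to 474 UPM in uninjured Opn4 cells (median 226 UPM) and 397, 271 and 287 UPM in injured 1, 2 and 3/4. Other cells fell from 196 to 335 UPM to 94.2 to 95.9 UPM, and the responses differed by 1.62 ± 0.25 (edgeR adjusted p = 5.1e-05). Of 30 tested ion channel genes 4 had a higher response in Opn4 cells, Kcnd2, Cacna1c and Cacna1g among them, and 0 a lower one, against the same 3.3% and 3.51% of all genes. In uninjured Opn4 cells 11 of the 30, Kcnd2 and Cacna1g among them, were lower than in other cells and 2 higher. In injured ones 0 were lower and 7 higher, with the shares over all genes as given for the receptors.

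Genes with a lower response in Opn4 cells were led by Sema3c, Gna14, Lhfpl2, Gng5, Zcchc12, Ndrg1, Atf5, Peli2, Myo10 and Pkib. Sema3c, a secreted guidance cue, had 0 UMIs in injured Opn4 cells and 92.8 to 113 UPM in injured other cells, at least 25.1-fold lower against 3 counts over the group. Gng5 and Ndrg1 were higher in Opn4 cells of uninjured samples and lower in those of injured samples, while Zcchc12 was higher in both. Zcchc12 was at 55.1 to 173 UPM in uninjured Opn4 cells (median 95.6 UPM) and 177, 87.4 and 153 UPM in injured ones, while other cells moved from 1.96 to 6.09 UPM to 49.5 to 66.4 UPM. Its responses differed by -3.46 ± 0.34 (edgeR adjusted p = 7.5e-08). Lifr, the receptor for leukaemia inhibitory factor, moved from 11.02 to 50.5 UPM to 70.6, 50.6 and 48.2 UPM in Opn4 cells and from 5.88 to 14.1 UPM to 86.8 to 117 UPM in other cells. The responses of Lifr differed by -2.39 ± 0.38 (edgeR adjusted p = 6.1e-05). Of 36 tested survival and growth signalling genes, Lifr was the only one with a lower response in Opn4 cells, and 2 had higher ones, among them the survival gene Bcl2l1 by 1.16 ± 0.35 (edgeR adjusted p = 0.038). These counts are near the shares over all genes (3.51% lower and 3.3% higher).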

How the data were processed

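RGCs of 6 uninjured and 4 injured libraries were profiled by droplet scRNA-seq. Per the labels, the authors deposited UMI counts per cell and gene, aligned to mm39, and Cell Ranger 7.0.1 stands in the submitters' processing notes. Per the study's methods, cells were filtered on mitochondrial share, genes and a UMI maximum that served against doublets, and no doublet caller was run here. The members and gene lists were chosen with earlier results of these data known. Barcodes of injured 4 present in injured 3 were dropped, and the remaining cells joined injured 3. Counts were summed per sample and class, filtered with filterByExpr, scaled by TMM and fitted with edgeR 4.0.16 (robust quasi-likelihood, R 4.3.3), with Benjamini-Hochberg adjustment over all genes tested. Standard errors are the log2 difference divided by the root of F. Named genes were Opn4, Eomes, Adcyap1, list members, and the 10 largest changes each way among called genes with average log2 counts per 1000000 of at least 5 and 1 direction in every sample, without mitochondrial, sex-linked or unnamed genes. On simulated data, 87.8% of tested 4-fold changes and 2.47% of 2-fold changes were recovered for injury within Opn4 cells, and 81.7% and 12.9% for uninjured Opn4 cells against other cells. The simulation gave every gene the same set dispersion, which was not estimated from these sums. Recovery can be lower for genes that vary more, so a gene not called may have changed by 4-fold or more. Alternatives were DESeq2 1.42.0, limma 3.58.1, other scaling, filters and selections, thinning, and leaving out each sample. Whether the counting used strand is not given in the sources used here, so reads of antisense partners may be included. Intervals and floors cover counting error only. Results for some genes are not reported here.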

Additional observations from a re-analysis of the deposited data

Results flagged for a closer look

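Of 52 groups of uninjured values tested for a sample far from the others, 5 held one, where chance gives about 1 in 20. In Opn4 cells these were uninjured 3 for Nmb (248 UPM), Gldn (437 UPM), Thbs1 (19.8 UPM) and Cntnap5b (85.6 UPM), and uninjured 4 for Cdkn1c (2799 UPM). In each case it was the highest sample.

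The response to injury differed between Opn4 cells and other cells, by the interaction term of the edgeR fit, for 28 of the named genes. Responses are compared with their sign, so a higher one can be a smaller fall. On the log2 scale it was higher in Opn4 cells for Necab2 by 4.84, Trarg1 by 4.43, Htr1b by 4.37, Hpca by 4.12, Ly6h by 3.66, Cntnap5b by 3.53, Nptx1 by 3.18, Parm1 by 3.12, Csmd3 by 3.11, Sox4 by 3.03 and Mapk10 by 0.97. It was lower for Sema3c by -12.94, Gna14 by -6.09, Lhfpl2 by -4.72, Gng5 by -3.56, Zcchc12 by -3.46, Ndrg1 by -3.34, Atf5 by -3.20, Peli2 by -3.13, Myo10 by -3.01, Pkib by -2.98, Ddit3 by -2.37, Gadd45a by -2.14, Sox11 by -2.05, Gap43 by -1.92, Atf4 by -1.71, Cebpg by -1.46 and Klf6 by -1.31. The fitted value of Sema3c rests on 0 UMIs in injured Opn4 cells and is no bound.

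The reporter mCherry, which was kept out of the named genes but not removed from the fits, had 649 UMIs in the 24 Opn4 cells of injured 3/4 and 0 in the other 75 Opn4 cells. Its part in the results was not tested, and the counts without injured 3/4 are given with the other settings.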

How the results depend on the processing

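One limit is cell number: 6 to 24 Opn4 cells per sample, with 113277 to 474138 UMIs, left changes of 2-fold mostly out of reach. For uninjured Opn4 cells against other cells, 2166 genes were called. The count was 726 with at least 10 UMIs in every sum, 1269 with cells thinned to 8000 UMIs, 884 without cells with markers of another class, and 1624 to 2266 when each sample was left out. For injured samples 1771 were called, against 623 with at least 10 UMIs and 1160 without cells of another class, and 843 (without injured 3/4) to 1859 with a sample left out. The response to injury differed between the classes for 832 genes, against 477 with at least 10 UMIs, 414 without cells of another class (341 higher and 73 lower), 1339 under the stricter Opn4 selection, and 458 (without injured 3/4) to 918 with a sample left out. Within Opn4 cells 97 genes were called by edgeR. The count was 149 with DESeq2, 401 with no filter on low counts, 50 with at least 10 UMIs, 256 under the stricter selection, 15 without cells of another class, and 256 with injured 4 as a sample of its own, where shared barcodes enter as replicates. It was 35 without injured 2, 61 without injured 3/4, 63 without injured 1, and up to 136 with an uninjured sample left out. The cause was not tested. Against Eomes cells low in Opn4, 291 genes were called beside Eomes, against 544 with 1 Eomes UMI as the minimum, 157 with DESeq2, and 94, 46 and 452 without uninjured 3, 4 and 5. Scaling by library totals alone gave 1152 higher and 634 lower calls in injured samples, where the main scaling gave 852 and 919, and DESeq2 gave 971 and 614. For the difference of the responses library totals gave 559 higher and 347 lower.

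The share of Opn4 cells turned from -1.01 to 3.59 percentage points with at least 1 Opn4 UMI and to 1.29 without cells of another class, and ran from -1.55 to -0.0775 with a sample left out. The log2 ratio of UMIs per cell was 0.0829 under the stricter selection and ran from 0.132 to 0.183 with a sample left out. Trarg1 turned from 4.43 to -2.23 under the stricter selection and to -3.02 without injured 2, and Klf6 in uninjured Opn4 cells to -0.0588 without cells of another class. Of the named genes, 66 of 117 kept direction and call in every setting that tested them for uninjured Opn4 cells against other cells, 63 of 92 for injured ones, 24 of 56 for the difference, 12 of 25 within Opn4 cells, and 24 of 51 against Eomes cells.

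The labels number samples in both groups. Deviations of same-numbered samples had correlations of 0.0183, 0.0543 and -0.133, and those of differently numbered samples ran from -0.12 to 0.121. These few values cannot decide whether the numbers pair the samples, and the main fits used no such pairing. With samples 1 to 3 of each group, 66 genes were called with a replicate block and 85 without it. Requiring no minimum of cells per sample kept the same 9 samples and was not run apart.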
